A study of Mus musculus with 24 samples.

Results

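The p53 pathway was read here through 10 genes, Trp53, Mdm2, Mdm4, Cdkn1a, Gadd45a, Sesn1, Ccng1, Trp53inp1, Bax and Bbc3, named for their known roles in it. They were chosen with earlier results of these data known. All 10 were found among the 54752 Ensembl gene IDs counted, and all 10 passed the filter on low counts in every comparison. The study sequenced RNA from mouse gastrocnemius, a calf muscle made mainly of fast fibres, in 8 groups with 3 libraries each, 24 in all. All animals carried floxed alleles of both Numb and Numbl (Numb(f/f)/NumbL(f/f) in the genotype field). Transgene animals also carried HSA-MCM, a Cre recombinase that tamoxifen activates and that the human skeletal actin promoter drives in muscle fibres, so that cells of the muscle other than fibres are not its target. Flox animals lacked it. Each sex and genotype was studied after tamoxifen and after vehicle: transgene females, flox females, transgene males and flox males. The titles call the transgene animals given tamoxifen cKO, for the conditional knockout, while the flox animals given tamoxifen received the drug with no recombinase to activate. The labels give no dose or timing of tamoxifen and no age.

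The transcription factor p53, encoded by Trp53, is held at a low level by Mdm2, a ubiquitin ligase that marks it for degradation, and by its relative Mdm4, which blocks p53 activity. DNA damage and other stresses free p53, which then activates genes of cell cycle arrest, repair, metabolism and cell death, and Mdm2 itself, so that the loop closes. Numb is known, from human cells, to bind Mdm2 and to stabilise p53, mostly at the level of protein, which mRNA counts do not measure. Several p53 target genes are also controlled without p53 in muscle, Gadd45a and Cdkn1a among them, after denervation and disuse.

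RefSeq promoter windows of build GRCm38.p6, from 250 bases before to 50 bases after an annotated start, were at hand for 9 of the 10 members, in 14 windows, with none for Trp53inp1. The p53 decamer, a pair of which makes up a p53 response element, was searched for on both strands, and 7 of the 14 windows held it. These belonged to Trp53, Mdm2, Cdkn1a, Gadd45a, Sesn1, Ccng1 and Bax, against 8.36% of 32851 RefSeq windows of the same length. The 250 bases before the start are shown for Mdm2, the inhibitor that the study's gene Numb binds, and for the 3 target genes with the largest tamoxifen differences here. They lie at chr10:117710759-117711008 on the minus strand for Mdm2, chr17:29090729-29090978 on the plus strand for Cdkn1a, chr6:67037408-67037657 on the minus strand for Gadd45a and chr10:41887189-41887438 on the plus strand for the second Sesn1 window. The Cdkn1a sequence is from the first window of this gene, and its second window held no decamer. Capitals mark matches to the decamer and, in Mdm2, also a match to the FoxO motif TGTTTAC read on the other strand.
Mdm2: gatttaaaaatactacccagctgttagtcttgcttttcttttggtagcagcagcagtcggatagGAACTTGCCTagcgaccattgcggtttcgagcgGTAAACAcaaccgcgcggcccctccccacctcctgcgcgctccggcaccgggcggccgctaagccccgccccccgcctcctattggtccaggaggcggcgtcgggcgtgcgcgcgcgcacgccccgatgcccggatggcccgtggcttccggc
Cdkn1a: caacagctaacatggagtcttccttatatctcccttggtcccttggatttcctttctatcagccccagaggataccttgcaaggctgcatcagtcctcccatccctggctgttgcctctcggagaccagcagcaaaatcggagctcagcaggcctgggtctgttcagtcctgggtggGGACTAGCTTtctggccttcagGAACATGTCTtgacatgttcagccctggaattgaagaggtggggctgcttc
Gadd45a: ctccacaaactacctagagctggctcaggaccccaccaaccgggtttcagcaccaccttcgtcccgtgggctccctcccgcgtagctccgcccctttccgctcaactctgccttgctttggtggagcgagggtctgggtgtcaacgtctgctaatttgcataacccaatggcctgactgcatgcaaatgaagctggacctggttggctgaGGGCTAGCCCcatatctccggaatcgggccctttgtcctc
Sesn1: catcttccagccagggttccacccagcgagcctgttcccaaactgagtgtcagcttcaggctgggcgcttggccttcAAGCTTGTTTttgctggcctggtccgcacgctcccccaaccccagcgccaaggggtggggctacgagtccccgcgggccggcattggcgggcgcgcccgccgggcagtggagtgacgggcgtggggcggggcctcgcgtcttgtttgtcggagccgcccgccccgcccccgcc
Counted from the start of the window shown, the decamers begin at -186 in Mdm2, at -73 and -51 in Cdkn1a, at -40 in Gadd45a and at -173 in Sesn1. Cdkn1a and Sesn1 each have another annotated start, with windows at chr17:29093519-29093818 for Cdkn1a and chr10:41810324-41810623 for Sesn1. TGTTTAC, found in 3.65% of all windows, also occurred in the first Sesn1 window and in a Bbc3 window. AGGTCA, the core of oestrogen response elements, occurred in 1 member window (Mdm4) and in 16.3% of all windows, and the E-box CACGTG in windows of Trp53, Bax and Bbc3 and in 7.15% of all windows. No match overlapped a match to another of these motifs. A match describes letters and shows neither binding nor a cause.

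Libraries held 21516819 to 43014516 counts, and transgene females, flox females and males lie in 3 separate tables. Differences between the sexes, and between female genotypes, in level or in tamoxifen response therefore cannot be told apart from the table. The title of 3 transgene male libraries says vehicle control while their treatment field says tamoxifen. They were read by title, and the means and sex differences of members that pass the test, or that move by over 0.1 log2, are given also without the transgene males. The 6 flox male libraries are titled WT although their genotype field gives the floxed alleles. The 8 muscle fibre markers summed to between 122057 and 213450 CPM (read counts scaled by library size and TMM factor) in the 24 libraries, and none of them was at 0. In each library Numb lay between 15.7 and 25.1 CPM. Over the 4 combinations of sex and genotype its mean log2 change with tamoxifen was -0.19 ± 0.04 (SE, adjusted p = 0.00761). The mean change of Numbl was 0.42 ± 0.08 (adjusted p = 0.00261). Among males, Numb changed by 0.00 log2 with the transgene and by -0.23 without it. Its female changes were -0.24 with the transgene and -0.28 without it, and none of these 4 passed the test. The response of transgene animals minus that of flox animals was 0.12 for Numb (95% interval -0.06 to 0.30) and -0.08 for Numbl (-0.43 to 0.27). Both genes overlap other annotated genes, and a whole-gene count does not isolate floxed exons.

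Tamoxifen left most of the 10 genes without a detectable change, and the members that rose were 2 stress-response targets, Sesn1 in males of both genotypes and Gadd45a in flox males. Trp53, Mdm2, Cdkn1a, Bax and Bbc3, which span the core of the loop, the best-known arrest target and the death genes, passed the edgeR quasi-likelihood test at an adjusted p of 0.05 in no comparison. Mdm4, Ccng1 and Trp53inp1 passed it in no comparison either. In flox males 2 of 10 members rose and 0 fell, beside 1.35% of 15628 genes called higher and 2.89% called in either direction. In flox males 4 members had an unadjusted p under 0.05, as did 17.5% of all genes, and DESeq2 called 3 and limma-voom 2. In transgene males 1 of 10, Sesn1, rose, beside 0.512% called higher and 0.889% in either direction. That Sesn1 call was lost under 7 of 18 alternative analyses, given below. In transgene males 2 members had an unadjusted p under 0.05, as did 10.1% of all genes, and DESeq2 called 2 and limma-voom 1. In transgene females 0 of 10 were called (1 at an unadjusted p under 0.05, 0 by DESeq2 and 0 by limma-voom), beside 1.32% of 14211 genes. Of those genes, 16.8% had an unadjusted p under 0.05. In flox females 0 of 10 were called (1 unadjusted, 1 by DESeq2, 0 by limma-voom), beside 0.131% of 14539 genes called and 8.65% at that unadjusted p. Averaged over the 4 combinations of sex and genotype, with all 24 libraries, 2 of 10 rose, Gadd45a and Sesn1, beside 3.95% of 16670 genes called higher and 8.83% in either direction. All p-values rest on the spread among these libraries only, since nothing in the labels says that each is a separate animal.

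Counts of members whose tamoxifen and vehicle groups did not overlap stood near those of all genes. There were 4 of 10 in flox males (Gadd45a, Sesn1 and Mdm4 higher, Bax lower), where 27.9% of all genes did not overlap. There were 2 of 10 in transgene males (Sesn1 and Ccng1, both higher), against 13.6%. Sesn1, lower, was the 1 such member in transgene females, against 22.8%, and Trp53inp1, higher, was the 1 in flox females, against 14.2%. The median log2 change of the members was -0.07 (transgene females), -0.04 (flox females), -0.06 (transgene males) and 0.19 (flox males), where the medians of all genes tested were 0.01, 0.00, 0.01 and -0.01.

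**Figure D1:**
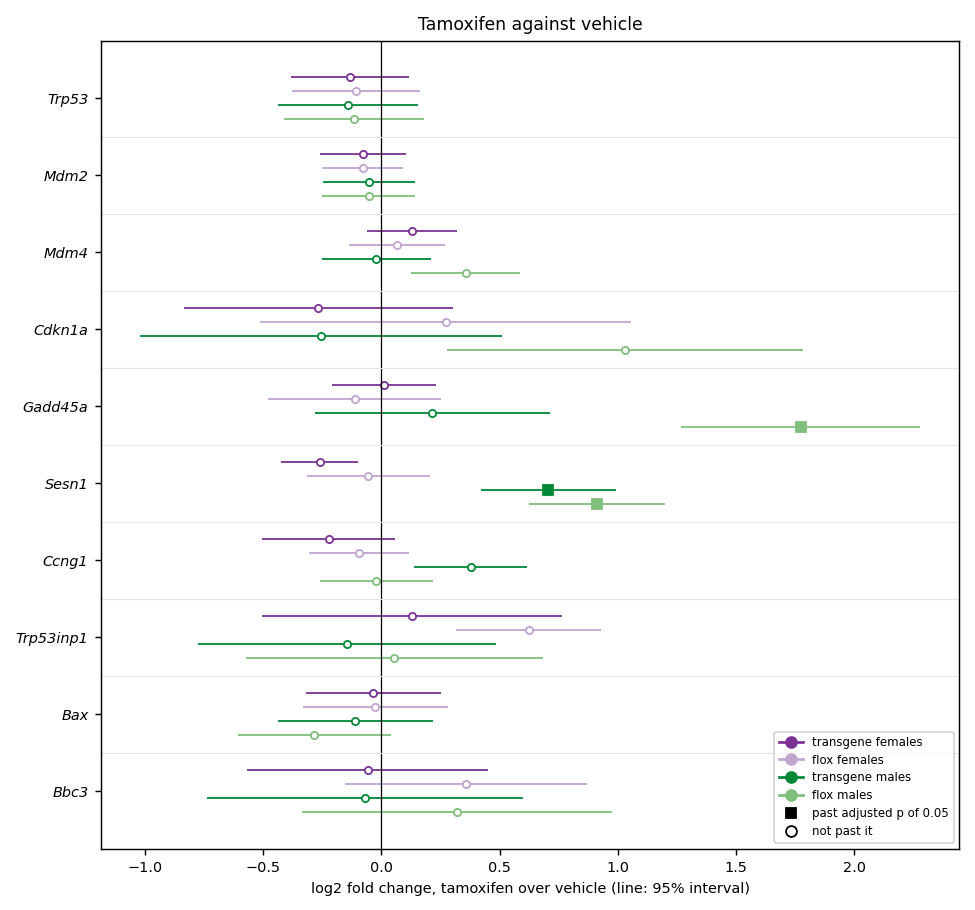
Log2 fold change of each member with tamoxifen over vehicle (horizontal axis) in transgene females, flox females, transgene males and flox males, with 95% intervals as lines; filled squares passed an adjusted p of 0.05. Sesn1 stands right of 0 in both male genotypes, and Gadd45a is filled in flox males alone, at 1.77.

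Trp53, the gene of p53 itself (chromosome 11, 69580359 to 69591873, plus strand, GRCm38), was expressed at a median of 3.98 RPKM (reads per kilobase of exon, scaled for depth) over the 24 libraries. It averaged 13.3 ± 1.67 CPM after tamoxifen and 14.7 ± 0.808 CPM after vehicle in transgene females (SD, n = 3 each), 18.0 ± 2.96 and 19.4 ± 1.87 CPM in flox females, 15.0 ± 2.85 and 16.6 ± 2.50 CPM in transgene males, and 15.8 ± 0.782 and 17.0 ± 1.01 CPM in flox males, tamoxifen before vehicle in each pair. The tamoxifen groups had the lower mean in all 4 pairs and overlapped their vehicle groups in all 4. The log2 differences lay between -0.14 and -0.11, and their mean over the 4 combinations was -0.13 ± 0.07 (SE, adjusted p = 0.28).

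Mdm2 (chromosome 10, 117688875 to 117710758, minus strand), whose promoter is shown above, was expressed at a median of 11.8 RPKM. In transgene females it had 52.6, 59.4 and 55.6 CPM after tamoxifen, against 58.1, 63.6 and 56.9 CPM after vehicle. In flox females it had 56.8, 51.6 and 50.9 CPM after tamoxifen, against 57.0, 56.2 and 55.01 CPM after vehicle. These female groups overlapped in both genotypes. In transgene males Mdm2 had 64.7, 76.9 and 78.8 CPM after tamoxifen, against 77.2, 70.8 and 81.3 CPM after vehicle, and in flox males 61.5, 57.8 and 64.0 CPM after tamoxifen, against 61.2, 61.1 and 67.4 CPM after vehicle. Male groups overlapped as well, and the 4 log2 changes were small and close to each other, at -0.08 in females of either genotype and -0.05 in males of either genotype. The mean change was -0.07 ± 0.04 (adjusted p = 0.342), with a 95% interval of -0.15 to 0.02. A change of Mdm2 mRNA particular to the conditional knockout was likewise not detected: the transgene response minus the flox response was 0.00 in females (interval -0.22 to 0.22), 0.00 in males (-0.27 to 0.28) and -0.01 over both sexes (-0.18 to 0.16).

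Vehicle-treated transgene males had more Mdm2 than vehicle-treated flox males in these libraries, at 70.8 to 81.3 CPM against 61.1 to 67.4 CPM. These transgene libraries are the 3 read as vehicle by title, although their treatment field says tamoxifen. The groups did not overlap, and the log2 difference of 0.26 ± 0.09 did not pass the test (adjusted p = 0.172). Mdm4 and Gadd45a also lay higher in transgene vehicle males without overlap, so that 3 of 10 members did, where 22.7% of all genes did not overlap. In that comparison 0 of 10 members were called by edgeR, 0 by DESeq2 and 0 by limma-voom, with 1 at an unadjusted p under 0.05. Of all genes, 0.947% were called by edgeR and 17.2% had an unadjusted p under 0.05.

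Mdm4, the partner that blocks p53 activity (chromosome 1, 132959484 to 133030561, minus strand), was expressed at a median of 3.14 RPKM. In flox males it had 49.7, 45.4 and 61.9 CPM after tamoxifen, against 40.7, 41.5 and 39.9 CPM after vehicle. All 3 tamoxifen libraries lay above the 3 vehicle libraries, and the third lay apart from the other 2. The log2 difference was 0.36 ± 0.11 and did not pass the test (adjusted p = 0.0967). In transgene males Mdm4 had 40.3, 44.9 and 49.1 CPM after tamoxifen, against 45.3, 45.4 and 45.9 CPM after vehicle, an overlap with a log2 difference of -0.02 ± 0.11. In females its log2 differences were 0.13 ± 0.08 with the transgene and 0.07 ± 0.09 without it.

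Cdkn1a encodes p21, the inhibitor of cyclin-dependent kinases through which p53 halts the cell cycle (chromosome 17, 29090976 to 29100727, plus strand). Its first promoter window holds 2 of the decamers shown above, and its second window holds none. In flox males Cdkn1a had 28.0, 17.8 and 40.0 CPM after tamoxifen, against 20.03, 10.1 and 11.7 CPM after vehicle. The means were 28.6 ± 11.1 and 13.9 ± 5.32 CPM, but the lowest tamoxifen library lay under the highest vehicle library. The log2 difference of 1.03 ± 0.34 did not pass the test (adjusted p = 0.149), and without the tamoxifen library at 40.0 CPM it was 0.71 (adjusted p = 0.44). DESeq2 called it, with 1.03 and an adjusted p of 0.0196. In transgene males Cdkn1a had 13.1, 12.3 and 8.04 CPM after tamoxifen, against 12.6, 16.4 and 11 CPM after vehicle, with a log2 difference of -0.26 ± 0.34. In females it had 22.2, 24.1 and 35.4 CPM after tamoxifen with the transgene, against 41.4, 32.0 and 25.9 CPM after vehicle, and in flox females 35.9, 34.8 and 41.7 CPM after tamoxifen, against 44.2, 19.1 and 29.9 CPM after vehicle. Both female pairs overlapped, with log2 differences of -0.27 ± 0.24 and 0.27 ± 0.31. Replicates of Cdkn1a spread widely, so that the 95% interval of the mean change over the 4 combinations ran from -0.17 to 0.55 log2. That mean was 0.19 (adjusted p = 0.575), and 0.34 (adjusted p = 0.37) without the transgene males. The transcript AC167363.2 on the opposite strand overlaps Cdkn1a and had 0 to 7 counts.

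Gadd45a, a stress sensor of growth arrest and DNA repair that muscle also induces when its nerve is cut (chromosome 6, 67035096 to 67037457, minus strand), carried the largest change among the members. In flox males it had 25.04, 27.4 and 31.9 CPM after tamoxifen, against 7.68, 8.07 and 8.87 CPM after vehicle. The groups lay far apart, with means of 28.1 ± 3.5 and 8.21 ± 0.611 CPM, and the log2 change was 1.77 ± 0.23, or 3.42-fold (adjusted p = 0.00304). Without any single male library, and in the alternative analyses, this change stayed between 1.67 and 1.85 with an adjusted p of at most 0.0206. In transgene males Gadd45a had 17.2, 7.58 and 14.6 CPM after tamoxifen, against 12.4, 10.2 and 11.5 CPM after vehicle. Here the second tamoxifen library was the lowest of all 6, the groups overlapped, and the log2 difference was 0.22 ± 0.23 (adjusted p = 0.839). Gadd45a in transgene females was 21.6, 20.7 and 23.7 CPM after tamoxifen, against 24.5, 20.2 and 21.4 CPM after vehicle, and in flox females 23.1, 14.2 and 17.5 CPM after tamoxifen, against 18.6, 21.1 and 19.5 CPM after vehicle. Neither female pair separated, with log2 differences of 0.01 ± 0.10 and -0.11 ± 0.16. The mean change over the 4 combinations was 0.47 ± 0.10 (adjusted p = 0.00519), to which flox males contribute most, and 0.55 (adjusted p = 0.000261) without the transgene males.

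A transcript on the opposite strand, E230016M11Rik, overlaps Gadd45a, and the sources used here do not say whether counting used strand. It had 19, 29 and 37 counts in flox males after tamoxifen, against 15, 14 and 8 counts after vehicle, and 8 to 77 counts over all libraries. Gadd45a itself had 618 to 973 counts in flox males after tamoxifen, against 192 to 230 counts after vehicle.

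Ccng1 encodes cyclin G1, a p53 target that acts back on Mdm2 in a feedback loop (chromosome 11, 40748552 to 40755311, minus strand). At a median of 272 RPKM it was by far the most abundant member, and Mdm2 followed with 11.8 RPKM. In transgene males it had 1092, 1239.7 and 1482 CPM after tamoxifen, against 963, 980.2 and 1001 CPM after vehicle. All 3 tamoxifen libraries lay above the vehicle libraries, and the log2 difference was 0.38 ± 0.11 (adjusted p = 0.178, and 0.0354 by DESeq2). In flox males it averaged 965 ± 56.6 CPM after tamoxifen and 976 ± 35.2 CPM after vehicle. Ccng1 in females averaged 886 ± 111 and 1046 ± 114 CPM with the transgene and 816 ± 79.8 and 871 ± 22.0 CPM without it, tamoxifen before vehicle, and these groups overlapped. The mean change over the 4 combinations was 0.01 (adjusted p = 0.9995), and -0.12 (adjusted p = 0.252) without the transgene males.

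Sesn1 encodes sestrin 1, which restrains growth signalling through mTORC1 under stress (chromosome 10, 41809935 to 41908424, plus strand), and it rose in males of both genotypes. In transgene males Sesn1 had 37.1, 26.4 and 28.5 CPM after tamoxifen, against 20.7, 18.9 and 16.9 CPM after vehicle. In flox males it had 37.1, 35.6 and 35.6 CPM after tamoxifen, against 17.3, 18.0 and 22.0 CPM after vehicle. Neither pair overlapped. The log2 change was 0.71 ± 0.13, or 1.63-fold, in transgene males (adjusted p = 0.0282) and 0.91 ± 0.13, or 1.88-fold, in flox males (adjusted p = 0.00332). In transgene males the call did not hold when 1 of 5 single libraries was left out, with adjusted p-values of 0.0511 to 0.0879 and log2 differences of 0.54 to 0.76. These were transgene tamoxifen replicates 1 and 3, transgene vehicle replicates 2 and 3 and flox tamoxifen replicate 3. It was also lost with only the 6 libraries compared (0.70, adjusted p = 0.175) and without the transgene male library of lowest Myh7 in each treatment (0.68, adjusted p = 0.136). In females Sesn1 had 45.0, 42.0 and 46.0 CPM after tamoxifen with the transgene, against 55.7, 52.6 and 52.8 CPM after vehicle, and without it 37.7, 39.9 and 37.1 CPM after tamoxifen, against 47.3, 33.7 and 38.1 CPM after vehicle. The transgene female groups were apart with tamoxifen the lower, but the log2 difference of -0.26 ± 0.07 did not pass the test (adjusted p = 0.117), and flox females overlapped at -0.06 ± 0.12. The mean over the 4 combinations was 0.32 ± 0.06 (adjusted p = 0.00132), and 0.20 (adjusted p = 0.0477) without the transgene males.

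**Figure D2:**
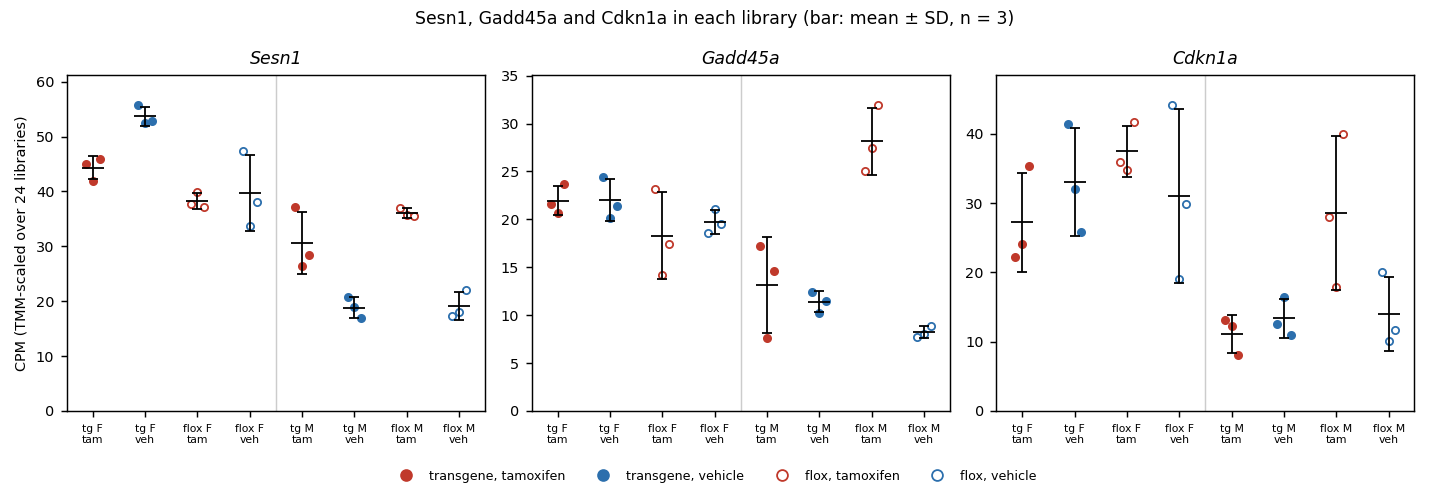
CPM of Sesn1, Gadd45a and Cdkn1a (vertical axes, from 0) in each library, with tamoxifen left of vehicle in each combination of sex and genotype, points for libraries and bars for the mean ± SD of each group. Gadd45a in flox males lies at 25.04 to 31.9 after tamoxifen, above the 7.68 to 8.87 after vehicle, and Sesn1 separates the treatments in both male genotypes.

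Trp53inp1, a p53-induced nuclear protein of autophagy and cell death (chromosome 4, 11156431 to 11174379, plus strand), had a median of 1.66 RPKM. In flox females it had 11.4, 12.2 and 11 CPM after tamoxifen, against 6.13, 8.63 and 7.76 CPM after vehicle. The groups did not overlap, and the log2 difference of 0.62 ± 0.14 did not pass the test (adjusted p = 0.187), though DESeq2 (adjusted p = 0.0163) and the test with no filter on low counts (adjusted p = 0.00121) called it. The other 3 pairs overlapped, with log2 differences of 0.13 (transgene females), -0.15 (transgene males) and 0.05 (flox males). The mean over the 4 combinations was 0.16 (adjusted p = 0.558), and 0.27 (adjusted p = 0.364) without the transgene males.

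Bax and Bbc3, the gene of Puma, encode BCL2 family members that open the mitochondrial route to cell death. Bax (chromosome 7, 45461697 to 45466898, minus strand) lay between 5.84 and 10.02 CPM and Bbc3 (chromosome 7, 16308393 to 16318205, plus strand) between 0.968 and 2.35 CPM in all 24 libraries. Bax had 7.74, 6.92 and 7.75 CPM in flox males after tamoxifen, against 7.88, 9.30 and 10.02 CPM after vehicle. Those groups did not overlap, by a narrow margin, and the log2 difference of -0.28 ± 0.15 did not pass the test (adjusted p = 0.347). The other log2 differences of Bax lay between -0.11 and -0.03, and those of Bbc3 between -0.07 and 0.36, with overlap in every pair. Bbc3 rested on 23 to 78 counts a library, and its intervals were as wide as -0.74 to 0.60 in transgene males, so that only large changes were detectable.

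**Figure D3:**
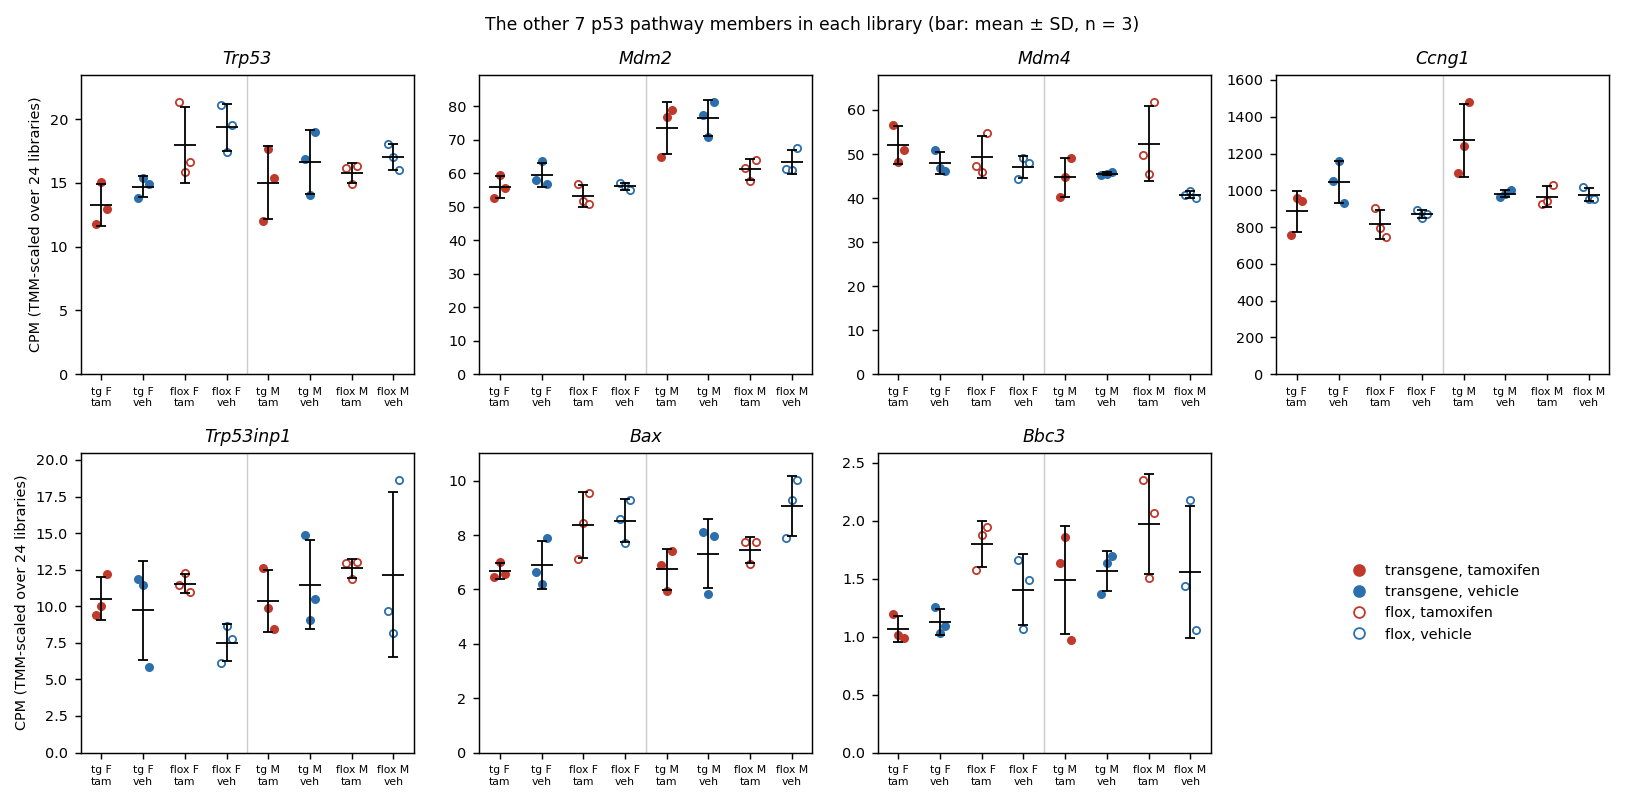
CPM of the other 7 members (vertical axes, from 0), 1 point a library, with tamoxifen left of vehicle in each pair and bars for the mean ± SD (n = 3). Apart from Mdm4 and Bax in flox males, Ccng1 in transgene males and Trp53inp1 in flox females, the tamoxifen and vehicle points of each pair overlap.

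The responses of Sesn1 and Gadd45a differed between the sexes, a difference that cannot be told apart from one between the count tables. For Sesn1 the male response minus the female response, each averaged over the 2 genotypes, was 0.98 ± 0.12 log2 (adjusted p = 0.00025), the third smallest p of 16670 genes, and for Gadd45a it was 1.05 ± 0.20 (adjusted p = 0.0134). Thus 2 of 10 members were called higher in this comparison, beside 0.372% of all genes called higher and 0.708% in either direction. The Sesn1 difference was positive under all 30 alternatives, between 0.89 and 1.09, with an adjusted p of at most 0.00105. For Gadd45a it was 1.84 (adjusted p = 1.3e-05) without the transgene males, and 1.002 (adjusted p = 0.06) without the transgene male library of lowest Myh7 in each treatment. Its components were 0.22 in transgene males and 1.77 in flox males, against 0.01 in transgene females and -0.11 in flox females. The other 8 members had differences from -0.42 (Trp53inp1) to 0.39 (Cdkn1a) and were not called, and Ccng1 had 0.34 ± 0.11 (adjusted p = 0.175). Without the transgene males, 4 of these 8 moved by more than 0.15 log2 and none was called: Cdkn1a had 1.04 (adjusted p = 0.293), Mdm4 0.27 in place of 0.08 (adjusted p = 0.302), Ccng1 0.15 (adjusted p = 0.628) and Bbc3 0.18 in place of -0.02 (adjusted p = 0.864). Trp53inp1 had -0.31 (adjusted p = 0.753).

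In the order of group means, Sesn1 stood highest in transgene females after vehicle (53.7 ± 1.78 CPM) and lowest in vehicle males, at 18.8 ± 1.89 CPM with the transgene and 19.1 ± 2.54 CPM without it, groups that overlapped each other. The tamoxifen-treated males, at 30.7 ± 5.67 and 36.1 ± 0.844 CPM, lay between these and the 4 female groups. Gadd45a had its highest group in flox males after tamoxifen and its lowest in flox males after vehicle, and the 6 other groups lay between them in a chain of overlapping neighbours. Cdkn1a stood at 17.8 CPM or more in each library of the 4 female groups and of flox males after tamoxifen, whereas the 3 other male groups lay between 8.04 and 20.03 CPM. Sex coincides with the count table and with depth in this order.

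The transgene response minus the flox response asks what the recombinase added to the drug, and no member passed the test there. In females genotype coincides with the table, and in males the comparison uses the 3 libraries whose title and treatment field differ. In females 0 of 10 were called (0 at an unadjusted p under 0.05, 0 by DESeq2 and 0 by limma-voom), beside 0% of 15182 genes, of which 1145 (7.54%) had an unadjusted p under 0.05. In males 0 of 10 were called (4 unadjusted, 1 by DESeq2, 0 by limma-voom), beside 0.0128% of all genes called and 8.25% at that unadjusted p. Over both sexes 0 of 10 were called (2 unadjusted, 0 by DESeq2, 0 by limma-voom), beside 0.0120% of all genes called and 8.01% at that unadjusted p. The largest was Gadd45a in males, at -1.56 ± 0.32 log2 (95% interval -2.26 to -0.85, adjusted p = 0.236), which DESeq2 called with an adjusted p of 0.00209. Cdkn1a in males had -1.29 ± 0.48 (adjusted p = 0.531), Mdm4 -0.38 ± 0.15 (adjusted p = 0.546) and Ccng1 0.40 ± 0.16 (adjusted p = 0.533). This comparison shares its flox male libraries with the flox male response given above, which it subtracts. For Trp53 the differences were -0.03 in females (interval -0.40 to 0.34) and -0.02 in males (-0.44 to 0.39), and for Bax -0.01 and 0.17.

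**Figure D4:**
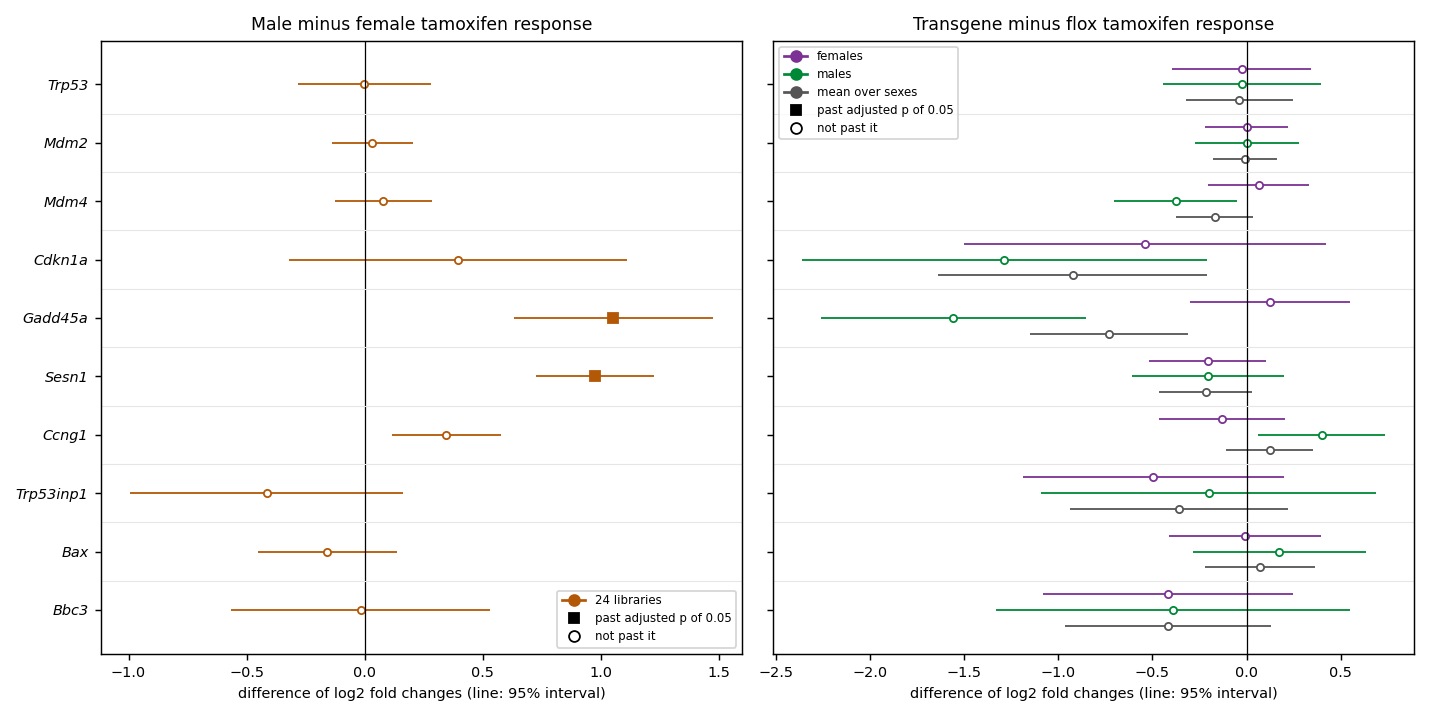
Differences between tamoxifen responses in log2 units (horizontal axes) for each member, with 95% intervals as lines: male minus female on the left, and transgene minus flox in females, males and their mean on the right; filled squares passed an adjusted p of 0.05. On the left Gadd45a (1.05) and Sesn1 (0.98) are filled, and on the right no marker is.

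Other cell types of the muscle were read beside these results from summed marker levels, since in bulk tissue fewer cells of a type and less RNA per cell cannot be told apart. In flox males the 8 macrophage and immune markers summed to 34.4 to 41.9 CPM after tamoxifen, against 48.5 to 68.6 CPM after vehicle. The 10 proliferation genes summed to 26.7 to 28.8 CPM after tamoxifen, against 32.1 to 35.6 CPM after vehicle. Pcna and Mcm2 carry most of this sum. Over the 24 libraries their medians were 12.7 and 9.91 CPM, and that of each other gene was 0.966 CPM or less. Satellite cell markers summed to 4.21 to 4.63 CPM after tamoxifen, against 3.24 to 3.95 CPM after vehicle. In transgene males the fibroblast markers summed to 457 to 503 CPM after tamoxifen, against 304 to 444 CPM after vehicle, and the slow fibre markers to 75.1 to 1819 CPM, against 240.3 to 2229 CPM. Immune markers overlapped there (29.5 to 54.3 CPM after tamoxifen, against 29.1 to 57.5 CPM). So did proliferation genes (24.02 to 28.2 CPM, against 26.9 to 30.8 CPM) and satellite cell markers (3.87 to 4.66 CPM, against 4.61 to 5.68 CPM). Endothelial, adipocyte, Schwann cell and blood marker sums overlapped between treatments in males of both genotypes. Fabp4 carries most of the adipocyte sum, with a median of 129 CPM over the 24 libraries. Adipoq, the next of these markers, had a median of 2.90 CPM. Lyz2 and Csf1r carry most of the immune sum, with medians of 17.8 and 7.27 CPM. The T cell marker Cd3e was at 0 in 6 libraries. In the mean over the 4 combinations, 7 of 14 circadian clock genes rose and 3 fell, beside 3.95% of all genes called higher and 8.83% called in either direction. The part of these markers and of clock genes in the changes of Gadd45a and Sesn1 was not tested.

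A wider list of 81 genes of p53 regulation, its targets, the BCL2 family and other kinase inhibitors was read alongside. In transgene females 1 of 72 tested rose and 1 fell, 2.78% in all, beside 1.32% of all genes. The gene that rose was Cdkn1c, the inhibitor p57, with 15.2 to 18.5 CPM after tamoxifen, against 11.2 to 11.7 CPM after vehicle (log2 change 0.57 ± 0.10, adjusted p = 0.0353). Tigar, which turns glucose toward the pentose phosphate pathway, fell to between 96.2 and 109 CPM after tamoxifen, against 136 to 160.4 CPM after vehicle (-0.52 ± 0.09, adjusted p = 0.0353). In flox males 2 of 73 rose and 1 fell, 4.11% in all, beside 2.89% of all genes, and neither share stands far from that of all genes. Perp, a membrane protein of desmosomes and a p53 target in cell death, had 2.47 to 4.63 CPM after tamoxifen, against 0.782 to 1.23 CPM after vehicle (1.66 ± 0.34, adjusted p = 0.0204). Bnip3l, a mitophagy receptor, rose by 0.38 ± 0.09 (adjusted p = 0.0436), and Trp53inp2, an autophagy protein abundant in muscle, fell by 0.83 on the log2 scale (SE 0.16, adjusted p = 0.0128). By edgeR 0 of 73 were called in flox females (12 at an unadjusted p under 0.05) and 0 of 73 in transgene males (9). Of all genes, 8.65% in flox females and 10.1% in transgene males had such a p. Tigar and Cdkn1c each overlap an antisense gene.

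Averaged over the 4 combinations, 6 of 75 of these genes rose and 9 fell, 20% in all, beside the 8.83% of all genes. The 6 with the smallest p-values were Numbl (0.42), Ephx1, an epoxide hydrolase (0.35 ± 0.07, adjusted p = 0.00412), Trp53inp2 (-0.31 ± 0.07, adjusted p = 0.00493), Trp53bp1, which binds p53 and damaged DNA (-0.20 ± 0.04, adjusted p = 0.00618), Cdkn2b, the inhibitor p15 (-0.59 ± 0.13, adjusted p = 0.00678), and Aen, a nuclease of apoptosis (-0.24 ± 0.06, adjusted p = 0.00737), and Numb was also among the genes that fell. The median change of the list was -0.01, that of all genes 0.00. Between vehicle-treated transgene and flox males, the kinase Chek2 (-1.03 ± 0.21, adjusted p = 0.0367) and the nucleotide synthesis gene Rrm2b (-0.37 ± 0.08, adjusted p = 0.0429) were lower with the transgene and 0 of 73 were higher, beside 0.947% of all genes called. The transgene group of this comparison was read as vehicle by title, against its treatment field. In the differences between genotype responses and between sexes 0 were called by edgeR, with 9 (females), 10 (males), 8 (both sexes) and 12 (male minus female) at an unadjusted p under 0.05.

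**Figure D5:**
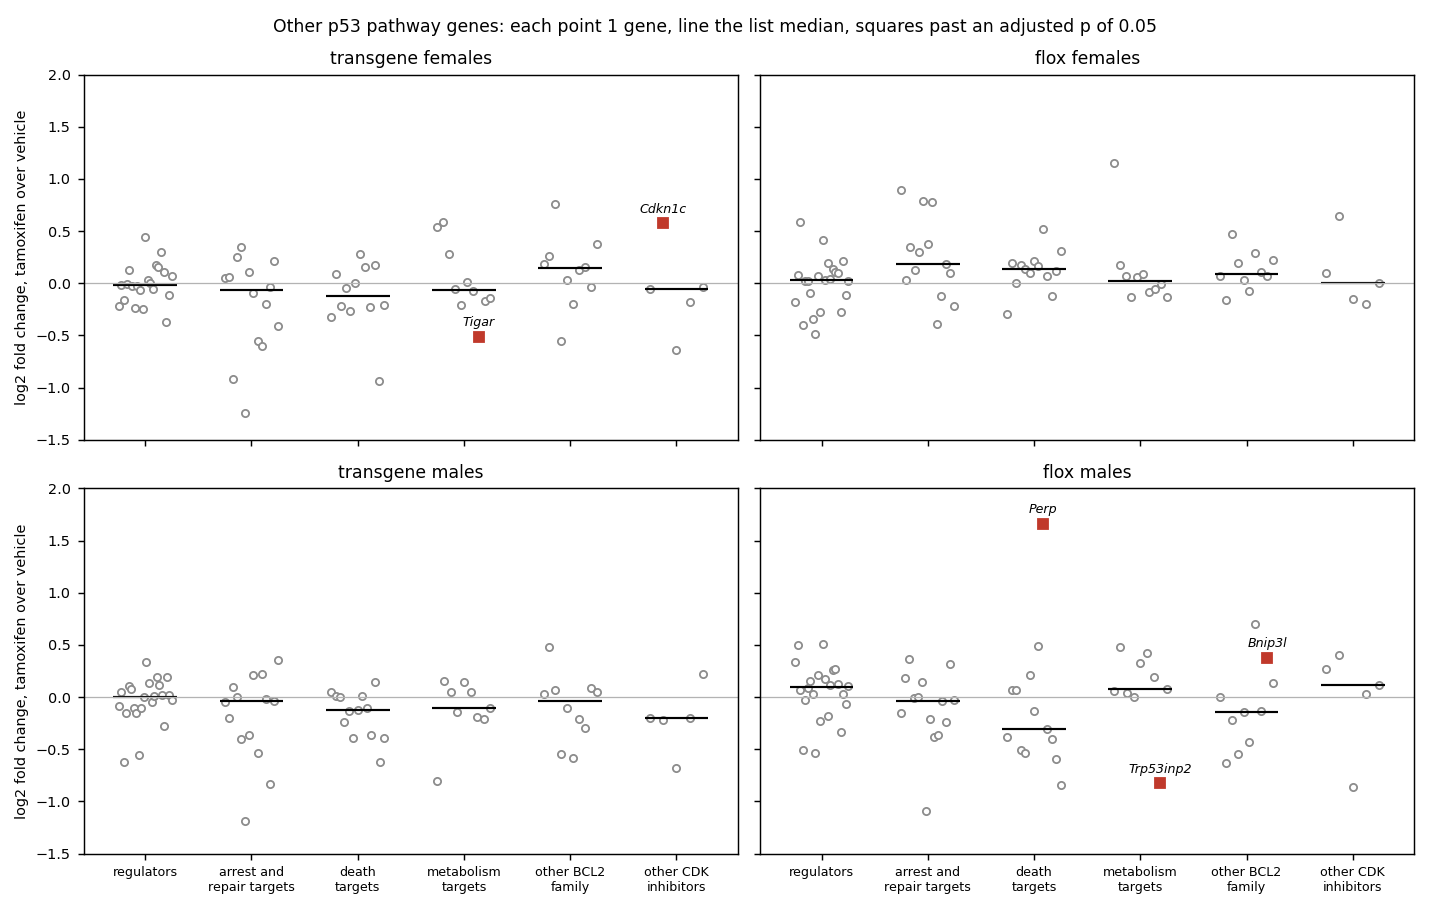
Log2 fold change with tamoxifen over vehicle (vertical axis) of the genes tested in 6 lists of the wider p53 pathway, in transgene females, flox females, transgene males and flox males; each point is 1 gene, the line is the list's median and red squares passed an adjusted p of 0.05. Cdkn1c and Tigar are marked in transgene females and Perp, Bnip3l and Trp53inp2 in flox males.

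For Mdm2, Cdkn1a and Gadd45a the genes of most similar pattern were taken as those with the highest Pearson r of log2 CPM after subtracting group means, over 24 libraries and among 11245 genes. They were Camk2a (0.898), Man2a2 (0.898) and Tox4 (0.896) for Mdm2, Pik3ca (0.908), Mon1b (0.88) and H2-Q7 (0.788) for Cdkn1a, and Gtf3c4 (0.762), Eid1 (0.762) and Cebpzos (0.758) for Gadd45a. These values describe libraries that share tables and ranges of depth.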

How the data were processed

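Total RNA of mouse gastrocnemius was sequenced in 24 libraries. The authors deposited raw read counts (whole numbers, with no scaling) for each Ensembl ID in 3 tables. STAR, featureCounts and limma and the builds GRCm38 and mm10 are named, per the submitters' processing notes, without versions. The sources used here do not give the library kit, the strand setting or the handling of multiply mapped reads.

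Groups came from the labels, with the title followed for the 3 transgene male libraries whose treatment field differs. The 10 members and all gene lists were chosen with earlier results of these data known. Tests used edgeR 4.0.16 in R 4.3.3 (TMM scaling, filterByExpr with a minimum count of 10 and a minimum total of 15, robust quasi-likelihood F-test). P-values were adjusted by Benjamini-Hochberg over all genes tested, with a threshold of 0.05. The standard error was the log2 change divided by the square root of F. Each female genotype was fitted on the 6 libraries of its own table, male comparisons on the 12 male libraries, female differences of responses on the 12 female libraries, and the mean and sex comparisons on all 24. CPM used TMM scaling over 24 libraries, and RPKM the exon length in GENCODE M21. Libraries held 21516819 to 43014516 counts. No pair of replicates within a group agreed within sampling noise (chi-square over its degrees of freedom, 9.22 to 117), so none was treated as a duplicate.

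Named genes were the 10 members, Numb and Numbl, at most 6 called genes per comparison from the lists of p53 regulators, targets, BCL2 family and kinase inhibitors, and 3 genes of like pattern for each of Mdm2, Cdkn1a and Gadd45a. Lists of cell type markers, proliferation, clock, glucocorticoid and atrophy genes were read as counts and ranges. The exceptions are Cd3e, Lyz2, Csf1r, Myh7, Pcna, Mcm2, Fabp4, Adipoq, Cebpd, Sgk1, Arntl and Per3, which were named after their values were seen. Alternatives were DESeq2 1.42.0, limma-voom (limma 3.58.1), median-ratio size factors, no filter, each library left out, the compared libraries alone, a replicate block in flox females, the analysis without transgene males and, chosen after seeing the data, without the transgene male library of lowest Myh7 in each treatment. The procedure was tested on simulated data.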

Additional observations from a re-analysis of the deposited data

Results flagged for a closer look

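The tamoxifen response of Sesn1 differed between the sexes by a test of the difference itself. The male response minus the female response, each averaged over both genotypes, was 0.98 log2 (95% interval 0.73 to 1.23, adjusted p = 0.00025, edgeR quasi-likelihood test). Its male responses were 0.71 with the transgene and 0.91 without it, and its female responses -0.26 and -0.06. Without the transgene males it was 1.09.

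The response of Gadd45a differed between the sexes by the same test, with a male minus female difference of 1.05 (interval 0.63 to 1.47, adjusted p = 0.0134). Its male responses were 0.22 with the transgene and 1.77 without it, and its female responses 0.01 and -0.11. The difference was 1.84 without the transgene males. Without the transgene male library of lowest Myh7 in each treatment it was 1.002 and did not pass the same test (adjusted p = 0.06). The sexes lie in different count tables, and each response is a difference within a table. For both genes a sex difference in response therefore cannot be told apart from one between the tables.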

How the results depend on the processing

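Of the 7 member results past the threshold, none changed sign under an alternative, and 5 kept their side of the threshold under each one tried. The exceptions were Sesn1 in transgene males, given above, and the sex difference of Gadd45a without the libraries lowest in Myh7 (adjusted p = 0.06). Sign changes among 1930 alternative values of members numbered 117, each between values past no threshold. Among all genes called, no filter on low counts gave 941 genes (transgene females), 329 (flox females), 221 (transgene males), 327 between vehicle males, and 20, 38 and 6 for the transgene minus flox response in females, in males and over sexes. DESeq2 gave 679 genes (transgene females), 145 (flox females), 328 (transgene males) and 871 (flox males) with tamoxifen, 601 between vehicle males, 45, 79 and 26 for those responses and 312 for the sex difference. Limma-voom gave 10 genes in flox females and 0 for the male response difference, and median-ratio size factors gave 1 for the female one. The compared libraries alone gave 27 genes in transgene males and 917 in flox males, and transgene males had 45 without the libraries lowest in Myh7. With each library left out, counts ranged over 37 to 215 (transgene females), 3 to 87 (flox females), 68 to 151 (transgene males), 143 to 644 (flox males), 44 to 204 between vehicle males, 0 to 2, 2 to 8 and 1 to 6 for the response differences in females, in males and over sexes, 1153 to 1456 for the mean effect and 82 to 209 for the sex difference. Same-numbered flox females did not deviate together (r of -0.17, -0.03 and -0.07), so the numbers were not taken as pairs, and the replicate block gave 15 genes there, against 19 without it, and 0 members. Depth limits Bbc3 most, with 23 to 78 counts a library.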

Other observations

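Lists outside the p53 pathway were also read in flox males, where 1.35% of all genes were called higher with tamoxifen and 2.89% in either direction. Of 9 glucocorticoid-responsive genes 2 rose there, Cebpd, a transcription factor, by 1.64 ± 0.24 log2 (adjusted p = 0.00496) and Sgk1, a kinase, by 0.55 ± 0.11 (adjusted p = 0.0152), both named here after their values were seen. Of 10 atrophy and denervation genes tested 2 rose in flox males, and of 11 tested in the mean over the 4 combinations of sex and genotype 3 rose, beside 3.95% of all genes called higher in that mean. The core clock gene Arntl was lower with tamoxifen in flox males (-2.07 ± 0.40, adjusted p = 0.0262) and Per3 was higher (1.2 ± 0.20, adjusted p = 0.0084), the 2 of 14 clock genes called there, named on the same ground.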
